A study of Sus scrofa with 10 samples.

Results

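The HOX genes of the pig (Sus scrofa) were followed in control testis and in tissue that grew from grafted testis cells. Members were all rows of the count table named HOX, a cluster letter from A to D and a paralog number. The table of 27376 rows holds 36 such rows, and 32 of them had at least 1 count. Of the rows, 11 belong to cluster A, 8 to B, 9 to C and 8 to D, and 11, 6, 8 and 7 of these had counts. HOXB1, HOXB13, HOXC12 and HOXD12 had no count in any of the 10 libraries. HOXB4, HOXB9 and HOXD4 were not analysed here.

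HOX genes encode homeodomain transcription factors that give cells of the embryo their position along the body axis. They lie in clusters, and their order along the chromosome matches the order of their anterior limits in the embryo: low paralog numbers act toward the head and high numbers toward the tail. Fibroblasts of the adult keep a HOX pattern that reflects the body site they came from. In the urogenital tract, HOX genes of paralog numbers 9 to 13 pattern the ducts from the epididymis, or the oviduct and uterus, downward, and HOXA10 is known for its part in the descent of the testis. HOX proteins bind DNA together with cofactors of the TALE family, and Polycomb and Trithorax proteins keep the clusters silent or active.

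The study asks whether germ cells influence how testis tissue forms anew. FO grafts grew from testicular fibroblasts alone (4 libraries), and GF grafts from germ cells together with testicular fibroblasts (4 libraries). Both kinds are primary pig cells, mixed with Matrigel and placed under the back skin of a mouse, given as SKID in the labels, and the tissue was collected after 6 months. Control testis has 2 libraries, whose titles carry an unexplained code, 5D, and whose growth and cell type fields repeat those of the GF grafts. The labels give neither the age of the control testis nor a strain, and do not say whether libraries come from separate donors or hosts, so p-values measure the spread between these libraries, which may be technical. How many host cells the tissue holds is not given, and whether mouse reads were counted on pig genes was not tested.

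PolyA RNA was counted at the 3' ends of transcripts, so counts carry no term for transcript length. Total counts ran from 4033509 to 4887878 in FO, from 2915534 to 4917325 in GF, where GF 3 and GF 4 were lowest, and from 5844944 to 7013911 in control testis. Levels are given as CPM (counts scaled to a common library total, with TMM factors), and 3 counts in a single library are worth 0.453 to 1.04 CPM. Summed germ cell markers were at 1.70 to 5.22 CPM in FO, whose label names no germ cells, and at 415 to 2373 CPM in GF. In control testis they were at 41.4 and 40.8 CPM. PRM1, TNP1 and ACR had 0, 3 and 2 counts in control testis, and DDX4, DAZL and PIWIL1 had 264, 169 and 83. Stromal fibroblast markers summed to 3882 and 4047 CPM in control testis, 3822 to 5653 CPM in FO and 1298 to 2425 CPM in GF. The skeletal muscle marker sum was high in FO 1 (672 CPM) and GF 3 (154 CPM), while it was between 2.42 and 24.6 CPM elsewhere. In bulk tissue, fewer cells of a type and less RNA per cell cannot be told apart.

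In the RefSeq annotation of Sscrofa11.1, which names all 36 rows as protein-coding genes, cluster A lies on chromosome 18 (107 kb), and cluster B spans chr12:24784953-24950661 (166 kb). Cluster C spans chr5:19151096-19268267 (117 kb) and cluster D chr15:81893997-81990026 (96.0 kb). The annotated HOXA3 locus overlaps HOXA4, HOXA5 and HOXA6, and HOXD9 overlaps HOXD10 and HOXD11. Noncoding RNA genes with counts also overlap members: LOC110260669 lies over HOXC6, LOC106510294 over ends of HOXC8 and HOXC9, LOC110257591 over HOXA3 and HOXA7, LOC102159438 over the end of HOXA10, LOC102166259 over HOXB5 and HOXB6 and LOC106505099 over HOXB3. Counts of these overlapping genes are uncertain, because the use of strand in counting is not given in the sources used here.

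HOX transcripts together were most abundant in control testis and least in GF. The 32 genes summed to 272 ± 11.4 CPM (SD, n = 2) in control testis, 199 ± 22.5 CPM (n = 4) in FO and 119 ± 24.2 CPM (n = 4) in GF, and these ranges did not overlap between the groups. Each control library detected 28 or 30 members, each FO library 23 to 25 and each GF library 14 to 23. Of the members, 28 were detected in both control libraries, 20 in all 4 FO libraries and 9 in all 4 GF libraries. Totals of counts differed between these libraries too: GF 1 to GF 4 had 23, 20, 17 and 14 members at totals of 4227357, 4917325, 2915534 and 2948156, and the part of depth in detection was not tested.

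**Figure D1:**
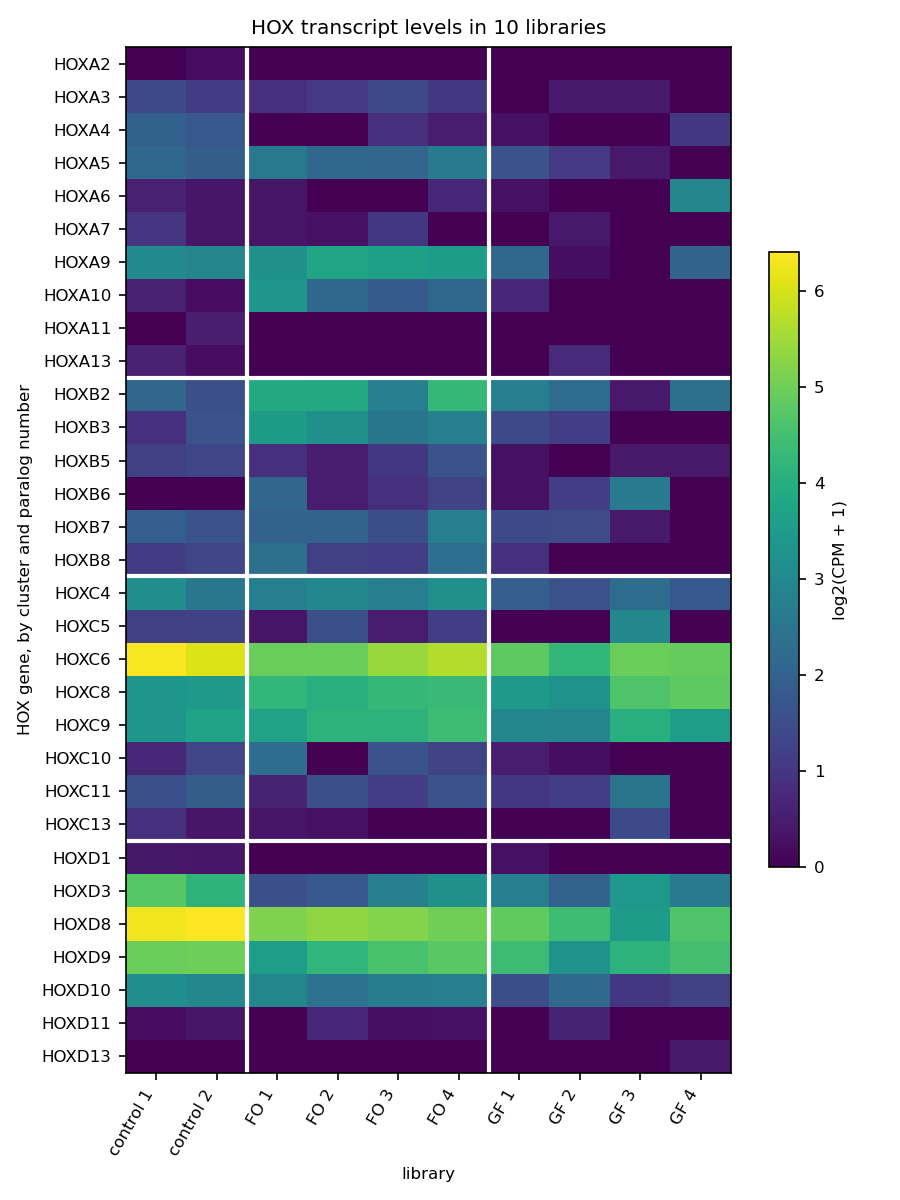
Level of HOX genes with counts, as log2(CPM + 1) by colour, in 10 libraries (columns), ordered by cluster and paralog number with white lines between clusters and groups. HOXC6 and HOXD8 were the brightest rows in control testis, and clusters A and B were brightest in FO.

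The map of levels shows a few strong genes in each cluster and many close to the counting floor. HOXC6 (mean of all libraries 40.2 CPM) and HOXD8 (38.6 CPM) stood highest, followed by HOXD9 (20.6 CPM), HOXC8 (15.9 CPM) and HOXC9 (12.7 CPM). HOXD3 (8.48 CPM), HOXB2 (7.09 CPM), HOXA9 (6.36 CPM), HOXC4 (5.02 CPM), HOXD10 (4.49 CPM), HOXB3 (3.50 CPM) and HOXA5 (2.67 CPM) made up the rest of the 12 most abundant. These means pool groups whose order differs: in control testis HOXD8 (80.5 CPM) stood above HOXC6 (73.2 CPM), with HOXD3 (21.3 CPM) after HOXD9 (30.4 CPM), and in GF HOXC8 (17.4 CPM) stood above HOXD9 (16.8 CPM), within their spread. The other 20 members had means from 0.0151 CPM for HOXA2, a gene of the pharyngeal arches, to 2.25 CPM for HOXB7.

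Clusters differed in which tissue held most of their transcripts. Cluster A summed to 16.9 ± 1.71 CPM in control testis, 22.2 ± 1.65 CPM in FO and 5.30 ± 4.49 CPM in GF. Cluster B summed to 9.31 ± 0.128 CPM in control testis, 28.9 ± 10.1 CPM in FO and 7.33 ± 2.58 CPM in GF. For both clusters every FO library lay above every GF library, and the mean of FO was 4.18 times that of GF for cluster A and 3.94 times for cluster B. Cluster C summed to 105 ± 8.83 CPM in control testis, 82.9 ± 14.4 CPM in FO and 60.2 ± 22.3 CPM in GF, and cluster D to 140.1 ± 0.726, 65.4 ± 8.01 and 45.7 ± 9.94 CPM. Here FO and GF overlapped, at FO to GF ratios of 1.38 for C and 1.43 for D, while all 8 grafts lay below both controls for D.

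**Figure D2:**
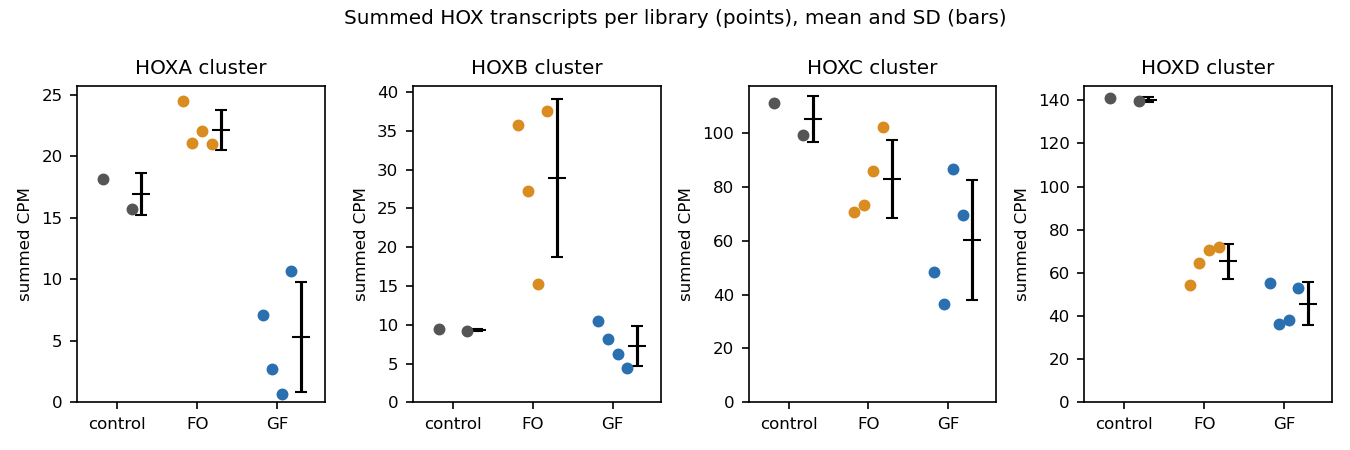
Summed CPM of the members of each HOX cluster per library (points) with the mean and SD of the group (bars), for control testis (n = 2), FO (n = 4) and GF (n = 4). FO lies above control testis and GF for cluster A, with no GF library over 10.7 CPM, and control testis lies above all grafts for cluster D.

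As shares of all HOX counts, clusters A and B held 6.22% and 3.43% in control testis, 11.2% and 14.5% in FO, and 4.35% and 6.59% in GF. Cluster D held 51.6% in control testis, 32.9% in FO and 39.1% in GF, and cluster C 38.7%, 41.4% and 49.9%. These sums are descriptions and were not tested.

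Summed by paralog number, GF was lowest in each band. Paralogs 1 to 3, which act in the hindbrain and neck, summed to 28.1 ± 5.52 CPM in control testis, 26.3 ± 6.01 CPM in FO and 10.5 ± 2.39 CPM in GF. Paralogs 4 to 8, the genes of the neck and trunk, summed to 183 ± 8.39, 113 ± 11.8 and 74.7 ± 15.8 CPM. Paralogs 9 to 13, the genes of the lower trunk, limbs and genital tract, summed to 60.5 ± 2.51, 60.5 ± 7.51 and 33.3 ± 8.06 CPM. In each band all GF libraries lay below all FO libraries, and only for paralogs 4 to 8 did all FO libraries lie below both controls. As shares of HOX counts, paralogs 4 to 8 made up 67.4% in control testis, 56.5% in FO and 63.0% in GF, and paralogs 9 to 13 made up 22.3%, 30.4% and 27.9%.

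Most genes of paralog numbers 11 and 13 had few counts. HOXA13 and HOXD13, genes of the digits and the terminal genital tract, had 4 and 0 counts in control testis, none in FO, and 4 and 1 in GF. HOXC13, a gene of hair and nails, had 7, 2 and 5 counts in control testis, FO and GF. HOXA11 had 3 counts in control testis and none in grafts, and HOXD11 had 3, 5 and 3 counts. HOXC11 stood above them, with 30, 27 and 25 counts. Of the genes of paralog numbers 1 and 2, HOXD1 had 4, 0 and 1 counts and HOXA2 had 1 count, in control 2, while HOXB2 had 33, 226 and 61. Counting intervals given with ratios cover counting error only.

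The comparison of GF with FO asks what the presence of germ cells in the graft goes with. Of 32 members, 13 had enough counts to be tested, and 4 of these were called lower in GF, at an adjusted p under 0.05 in edgeR's quasi-likelihood test: HOXA9, HOXA10, HOXB2 and HOXB3. No member was called higher in edgeR or in DESeq2, and none was higher at an unadjusted p under 0.05. Of all 13782 genes tested, 13.0% were called lower, 17.6% higher and 30.5% in either direction, so the share of called members, 30.8%, was close to that of all genes. All 4 called members had enough counts to be tested only in FO, so their number is no support for a direction. The 6 members with enough counts in both groups, HOXC4, HOXC6, HOXC8, HOXC9, HOXD8 and HOXD9, included none that was called.

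Cluster A held the member with the widest gap. HOXA10 had 9.48, 3.48, 2.52 and 3.39 CPM in FO 1 to FO 4, and 0.643, 0, 0 and 0 CPM in GF 1 to GF 4. All FO libraries lay above all GF libraries, and control testis, at 0.495 and 0.151 CPM, lay with GF. With 78 counts in FO and 3 in GF, the ratio was 23.5-fold lower in GF (95% exact counting interval 7.76 to 117), and the fitted log2 fold change was -4.47 ± 1.02 (SE), with an adjusted p of 0.00668 in edgeR. Without GF 1, which holds all 3 counts, HOXA10 was at least 16.7-fold lower in GF, against a floor of 3 counts over the group.

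HOXA9, a posterior gene of the trunk and the genital ducts, had 8.36, 12.8, 11.5 and 10.4 CPM in FO and 3.43, 0.181, 0 and 3.11 CPM in GF. The groups did not overlap, and both controls, at 7.25 and 6.50 CPM, lay between them. The log2 fold change was -2.67 ± 0.82 (adjusted p = 0.0282, edgeR), and it was -3.39 without GF 1. The call was lost without FO 1, FO 2, FO 3 or FO 4 (adjusted p from 0.0638 to 0.0793).

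HOXA5, a gene of the neck and the developing lung, had 5.02, 3.48, 3.36 and 5.09 CPM in FO and 2.14, 1.08, 0.345 and 0 CPM in GF. These did not overlap, but the test did not call the gene (log2 fold change -2.10 ± 0.77, adjusted p = 0.0580, edgeR). The other members of cluster A had too few counts to be tested. HOXA3, needed for the thymus and parathyroid, had 21 counts in FO and 3 in GF, a ratio 6.34-fold lower in GF (1.89 to 33.2). HOXA4 had 6 and 4 counts and HOXA7 had 7 and 2, with ratio intervals that include no difference. HOXA6 had 4 counts in FO and 20 in GF, of which 19 came from GF 4.

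In cluster B both tested members were lower in GF. HOXB3, a gene of the hindbrain and pharyngeal arches, had 10.3, 8.27, 4.61 and 5.93 CPM in FO and 1.71, 1.26, 0 and 0 CPM in GF, a log2 fold change of -3.08 ± 0.83 (adjusted p = 0.0154, edgeR). Control testis had 0.824 and 2.12 CPM. FO and GF did not overlap, and without GF 1 the log2 fold change was -3.72. The call was lost without FO 1 (adjusted p = 0.0624).

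HOXB2, a hindbrain gene, had 13.9, 13.7, 5.66 and 18.2 CPM in FO and 5.79, 3.79, 0.345 and 4.15 CPM in GF. Here FO 3 lay just below GF 1, so the groups overlapped, and control testis had 3.30 and 1.96 CPM. The log2 fold change was -1.84 ± 0.62 (adjusted p = 0.0419, edgeR), and the call was lost without FO 1, FO 2, FO 4, GF 2 or GF 4 (adjusted p = 0.106, 0.0980, 0.127, 0.0714 and 0.0516). It was also lost with total counts as scaling (0.0694) and with thinning to the lowest total (0.0623), both in edgeR.

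The other HOXB genes lacked the counts for a test. HOXB8, a trunk gene, had 46 counts in FO and 4 in GF, a ratio 10.4-fold lower in GF (3.80 to 39.8). With all 10 libraries in the fit it had enough counts, in FO alone, for a test. It was then called, at a log2 fold change of -3.34 (adjusted p = 0.0319, edgeR). HOXB8 was not called with no filter (adjusted p = 0.0583) or without GF 3 and GF 4 (adjusted p = 0.0669, both edgeR). HOXB5 had 20 and 3 counts (6.03-fold lower, 1.79 to 31.7) and HOXB7 had 61 and 19 (2.91-fold lower, 1.71 to 5.15), and for all 3 genes every GF library lay below every FO library. HOXB6 had 25 counts in FO and 23 in GF, of which 15 came from GF 3.

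**Figure D3:**
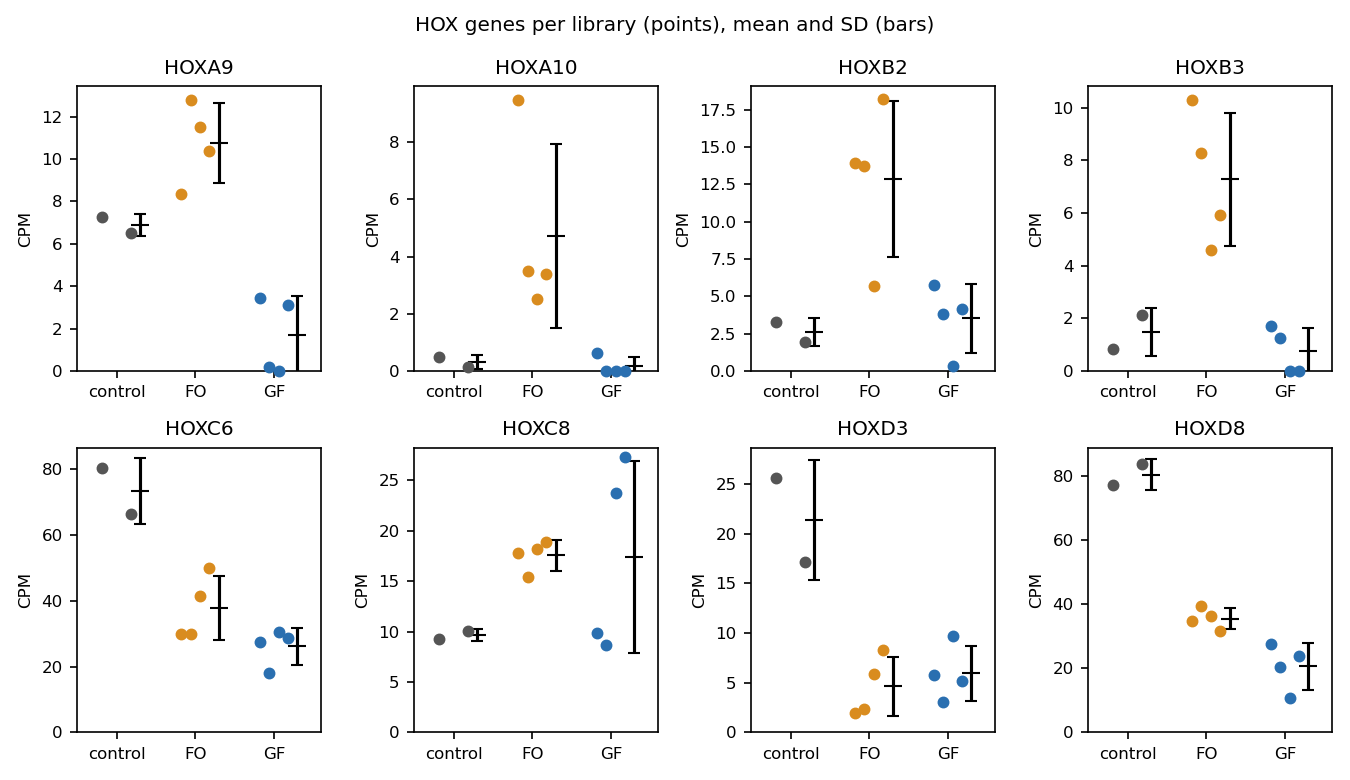
CPM per library (points) with the mean and SD of the group (bars) of 8 HOX genes in control testis (n = 2), FO (n = 4) and GF (n = 4), each panel on its own axis from 0. For HOXA9, HOXA10 and HOXB3 all GF points lie below all FO points, for HOXC8 the GF points split, and for HOXC6, HOXD3 and HOXD8 both controls lie above all grafts.

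Clusters C and D had no call between GF and FO among 4 tested members each. HOXC8, a gene of the chest and forelimb level, had 17.8, 15.4, 18.2 and 18.9 CPM in FO and 9.86, 8.67, 23.8 and 27.3 CPM in GF, so that GF 1 and GF 2 lay below all FO libraries and GF 3 and GF 4 above them. Its log2 fold change was -0.02 ± 0.41 (adjusted p = 0.974, edgeR). HOXC9, which acts along the thoracic trunk, had 43, 77, 79 and 96 counts in FO, a mean of 16.4 ± 3.42 CPM, and 31, 36, 45 and 32 counts in GF, a mean of 9.94 ± 4.29 CPM (-0.73 ± 0.40, adjusted p = 0.180, edgeR).

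HOXC6, a gene of the upper trunk, had 29.8, 30.0, 41.5 and 49.8 CPM in FO and 27.4, 17.9, 30.4 and 28.7 CPM in GF, and its groups overlapped (-0.53 ± 0.29, adjusted p = 0.178, edgeR). HOXC4 had 5.85, 6.96, 5.66 and 8.26 CPM in FO and 2.79, 1.99, 3.80 and 2.42 CPM in GF, with no overlap (-1.28 ± 0.49, adjusted p = 0.0659, edgeR). Without GF 3 and GF 4, the 2 libraries of lowest total, HOXC4, HOXC6, HOXC8 and HOXC9 all passed the test as lower in GF (adjusted p = 0.0271, 0.0496, 0.0235 and 0.00752, edgeR). In that fit 8 of 15 tested members were called lower, in place of 4 of 13. Of all genes, 5305 of 14714 were then called in either direction, in place of 4205 of 13782. HOXA10 and HOXB3 then had log2 fold changes of -3.84 and -2.28. Of the untested members, HOXC10, a gene of the lumbar level, had 31 counts in FO and 3 in GF (9.35-fold lower, 2.92 to 47.8). FO 2 had 0 counts of it, so the groups overlapped. HOXC5 had 18 counts in FO and 20 in GF, all 20 from GF 3.

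In cluster D, HOXD8 had 34.8, 39.6, 36.3 and 31.6 CPM in FO and 27.6, 20.4, 10.7 and 23.9 CPM in GF. The groups did not overlap, and the log2 fold change was -0.78 ± 0.31 (adjusted p = 0.0711, edgeR). HOXD10, a gene of the lumbar level and hind limb, had 6.69, 4.35, 5.45 and 5.72 CPM in FO and 1.93, 3.61, 1.04 and 1.38 CPM in GF, again with no overlap (-1.42 ± 0.56, adjusted p = 0.0735, edgeR). HOXD9 had 10.9, 17.6, 22.7 and 26.3 CPM in FO and 19.9, 8.67, 16.6 and 22.1 CPM in GF (-0.21 ± 0.39, adjusted p = 0.715). HOXD3, a gene of the neck, had 1.95, 2.39, 5.87 and 8.26 CPM in FO and 5.79, 3.07, 9.67 and 5.19 CPM in GF (0.34 ± 0.60, adjusted p = 0.698, edgeR).

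Over the 13 tested members, 12 log2 fold changes were below 0, with a median of -1.28, where 50.7% of all tested genes were below 0 and their median was -0.02. For 7 of 13 members all GF libraries lay below all FO libraries, against 18.2% of all genes. Of the 13 members, 6 passed the filter through FO alone and 1, HOXD3, through GF alone, so these counts do not support a direction for the family. FO 1 and GF 3 are the libraries with high muscle markers, and without both no member was called (HOXA10 adjusted p = 0.0520, HOXA9 0.0719, HOXB3 0.0721, HOXB2 0.0994), although HOXA10, HOXA9, HOXB3 and HOXB2 kept log2 fold changes of -3.64, -2.41, -2.54 and -1.45. Of 8 stromal fibroblast markers, 6 were called lower and 1 higher in GF, beside 13.0% and 17.6% of all genes. Their sum in control testis, 3882 and 4047 CPM, lay within the FO range of 3822 to 5653 CPM. For HOXA10, HOXA9, HOXB3 and HOXB2 both controls lay below all FO libraries. The part of these markers in the result was not tested.

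**Figure D4:**
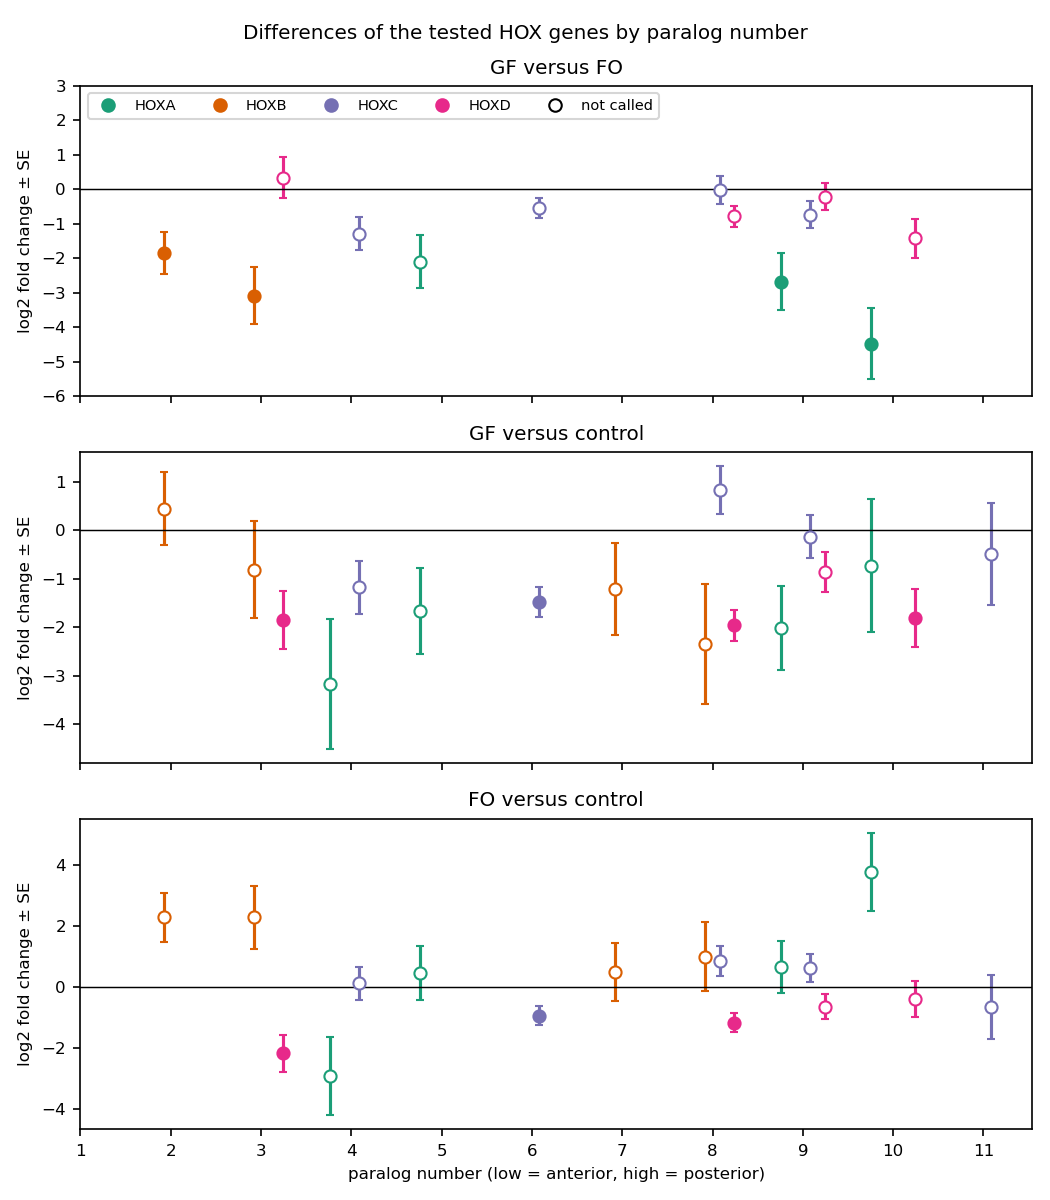
Log2 fold change ± SE of the tested HOX genes against paralog number, coloured by cluster, for GF versus FO (13 genes), GF versus control testis and FO versus control testis (17 genes each, HOXB6 left out because both controls are at 0). Filled points passed the test: 4 genes of clusters A and B for GF versus FO, and genes of clusters C and D against control testis.

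The plot of fold changes by paralog number sets the tested members in order along the body axis. In GF versus FO, 2 of 3 members in paralogs 1 to 3, 0 of 5 in paralogs 4 to 8 and 2 of 5 in paralogs 9 to 13 were called lower, beside 13.0% of all genes, and the 4 called members passed the filter through FO alone. All 5 members in paralogs 4 to 8 and all 5 in paralogs 9 to 13 had log2 fold changes below 0, as did 2 of 3 in paralogs 1 to 3. At paralog number 10, HOXA10 and HOXD10, which passed the filter through FO alone, were lower in all GF libraries than in all FO libraries. The untested HOXC10 had fewer counts in GF, but its groups overlapped. At 3, HOXB3 had -3.08 and HOXD3 0.34, and at 9, HOXA9 had -2.67, HOXC9 -0.73 and HOXD9 -0.21. Differences between clusters were not tested.

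The comparison of GF with control testis sets the graft with germ cells beside testis of an age that is not given. Germ cell markers summed to 41.4 and 40.8 CPM in control testis and to 415 to 2373 CPM in GF. The part of this difference in the HOX values was not tested. Of 18 tested members, 4 were called lower in GF, HOXD8, HOXC6, HOXD3 and HOXD10, and none higher. Of 15877 genes tested, 11.8% were called lower and 25.8% in either direction, against 22.2% of the members. At an unadjusted p under 0.05, 1 member was higher, and DESeq2 called 1 higher, HOXB6, which had no count in control testis. DESeq2 called 5104 of 15853 genes in either direction. Shares of all genes higher by these rules are not given here, so these counts support no direction. Cluster D held 3 of the calls, among 4 tested members. The 2 comparisons with control testis share its libraries, so they are not independent.

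HOXD8 had 77.2 and 83.9 CPM in control testis and 10.7 to 27.6 CPM in GF, a log2 fold change of -1.96 ± 0.32 (adjusted p = 8.93e-04, edgeR). HOXC6 had 80.3 and 66.2 CPM in control testis and 17.9 to 30.4 CPM in GF (-1.49 ± 0.31, adjusted p = 0.00366). HOXD3 had 25.6 and 17.1 CPM in control testis and 5.79, 3.07, 9.67 and 5.19 CPM in GF (-1.86 ± 0.60, adjusted p = 0.0355). HOXD10 had 7.75 and 6.95 CPM in control testis and 1.93, 3.61, 1.04 and 1.38 CPM in GF (-1.82 ± 0.60, adjusted p = 0.0387, edgeR). For all 4 genes both controls lay above all GF libraries. Without control 1, HOXC6, HOXD3 and HOXD10 lost their call (adjusted p = 0.0563, 0.264 and 0.204), and without control 2, HOXD3 and HOXD10 did (0.117 and 0.176). HOXD3 also lost it without GF 1 (0.0516) or GF 2 (0.0695), and HOXD10 without GF 1 (0.0562).

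Other members of the same clusters did not pass. HOXC8 stood at 9.23 and 10.1 CPM in control testis, with GF 1 and GF 2 near it and GF 3 and GF 4 above it (0.83 ± 0.49, adjusted p = 0.228, edgeR). HOXD9 had 29.7 and 31.1 CPM in control testis, above all GF libraries (-0.86 ± 0.42, adjusted p = 0.142). HOXA4, a neck gene, had 34 counts in control testis and 4 in GF (10.7-fold lower, 3.82 to 41.6), and its log2 fold change of -3.17 ± 1.34 did not pass (adjusted p = 0.0982, edgeR). HOXB6 had no count in control testis and 23 in GF, at least 6.08-fold higher against a floor of 3 counts over the group, and did not pass the test (adjusted p = 0.0702, edgeR). Over the 18 members the median log2 fold change was -1.20, against 0.03 for all genes, and it was -1.20 too with HOXB6 at its bound. For 11 of them all GF libraries lay below both controls, beside 25.3% of all genes. Of the 18 members, 9 had enough counts in both groups. HOXA4 and HOXA5 passed the filter through control testis alone, HOXB2 through GF alone and 6 members through neither of these groups alone. The median and the count of 11 therefore do not support a direction for the family.

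FO was compared with control testis in the same way. Of 18 tested members, HOXD8, HOXD3 and HOXC6 were called lower, where 10.6% of all genes were called lower, 8.12% higher and 18.7% in either direction, against 16.7% of the members. None was called higher by edgeR, though 4 were higher at an unadjusted p under 0.05 and DESeq2 called 4 higher. The 4 in DESeq2 were HOXA10, HOXB2 and HOXB3, which passed the filter through FO alone, and HOXB6, with no count in control testis. DESeq2 called 3825 of 15853 genes in either direction. Shares of all genes higher by these 2 rules are not given here, so these counts support no direction. HOXD8 had 31.6 to 39.6 CPM in FO (-1.18 ± 0.32, adjusted p = 0.0202), HOXD3 1.95 to 8.26 CPM (-2.19 ± 0.60, adjusted p = 0.0209) and HOXC6 29.8 to 49.8 CPM (-0.95 ± 0.31, adjusted p = 0.0442, edgeR), all below both controls.

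These calls depended on single libraries and, for HOXC6 and HOXD8, on settings. All 3 were lost without control 1 (HOXC6 0.306, HOXD3 0.209, HOXD8 0.117), without control 2 (0.156, 0.0887 and 0.175) and without FO 1 (0.113, 0.0582 and 0.0529). HOXC6 was also lost without FO 2 (0.117) or FO 3 (0.0764), HOXD3 without FO 2 (0.0612) and HOXD8 without FO 4 (0.0553), all as adjusted p in edgeR. The call of HOXC6 was lost too with RLE size factors (0.0537), with no filter (0.0513) and with counts thinned to the lowest total (0.0617). With a fold threshold of 1.5, HOXC6 (0.196) and HOXD8 (0.0879) lost their calls, and HOXD8 did with the replicate block (0.0586, edgeR).

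Several members of clusters A, B and C stood higher in all FO libraries than in both controls without passing the test. Of these 2 groups, only FO had enough counts of HOXA10, HOXB2, HOXB3, HOXB7 and HOXB8 for a test, so their direction is no support for a pattern. HOXA10 had 78 counts in FO and 4 in control testis, 14.0-fold higher (5.25 to 52.6), with a log2 fold change of 3.77 ± 1.29 (adjusted p = 0.0568, edgeR). HOXB2 stood 2.28 ± 0.80 log2 units higher (adjusted p = 0.0629) and HOXB3 2.28 ± 1.03 (adjusted p = 0.145). HOXC8 differed by 0.86 ± 0.49 (adjusted p = 0.247, edgeR). HOXB6 was at least 5.98-fold higher against the floor (adjusted p = 0.0920). HOXA4 had 6 counts in FO against 34 in control testis, 7.90-fold lower (3.28 to 23.0), and did not pass (adjusted p = 0.133, edgeR). In all, 6 members were higher and 6 lower with no overlap between the groups, as were 26.7% and 32.0% of all genes.

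Genes that lie inside or beside the clusters were looked at for the same comparisons. LOC106506838, a noncoding RNA beside HOXA2, had 7.91 and 7.25 CPM in control testis, 2.79 to 4.03 CPM in FO and 0 to 1.44 CPM in GF. It was lower in GF than in control testis (-2.88 ± 0.77, adjusted p = 0.0153, edgeR), and its -1.64 ± 0.73 in GF versus FO did not pass (adjusted p = 0.109). LOC106505099, the noncoding RNA over HOXB3, had 7.83 to 20.1 CPM in FO and 5.60 to 8.99 CPM in GF (-1.02 ± 0.41, adjusted p = 0.0751, edgeR). Flanking genes of other function were not called between GF and FO: CALCOCO1 and SMUG1 beside cluster C had log2 fold changes of -0.02 and 0.72, MTX2 beside cluster D had 0.02 and SKAP1 beside cluster B had -0.58 (adjusted p = 0.972, 0.231, 0.981 and 0.476, edgeR). TTLL6 and LOC106506836, the flanks on the other side of clusters B and A, were not tested there. TTLL6 had 0 counts in FO and 11, 18, 50 and 2 in GF 1 to GF 4. LOC106506836 had 11 counts in FO and 0 in GF. EVX1 and EVX2, homeobox genes at the posterior ends of clusters A and D, and the microRNA genes MIR196A-1, MIR196A-2 and MIR615 had no counts. MIR10A and MIR10B had 2 and 8 counts, all in control testis.

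Of 9 TALE cofactors, 3 were lower and 2 higher in GF than in FO, and 4 were not called, beside 17.6% of all genes higher, 13.0% lower and 30.5% in either direction. MEIS2 had 38.7, 31.1, 23.7 and 33.3 CPM in FO and 7.07, 3.97, 7.59 and 2.77 CPM in GF (-2.56 ± 0.38, adjusted p = 7.35e-04, edgeR). MEIS1 had 23.3 to 37.9 CPM in FO and 4.14 to 11.2 CPM in GF (-1.78 ± 0.35, adjusted p = 0.00319). For both genes the groups did not overlap. PKNOX1 and PBX4 were higher in GF, at 1.29 ± 0.36 and 1.88 ± 0.53 (adjusted p = 0.0183 and 0.0189, edgeR). PKNOX1 had no overlap between the groups. PBX4 overlapped, with 4.87 to 13.3 CPM in FO and 29.8, 66.6, 29.7 and 8.30 CPM in GF.

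**Figure D5:**
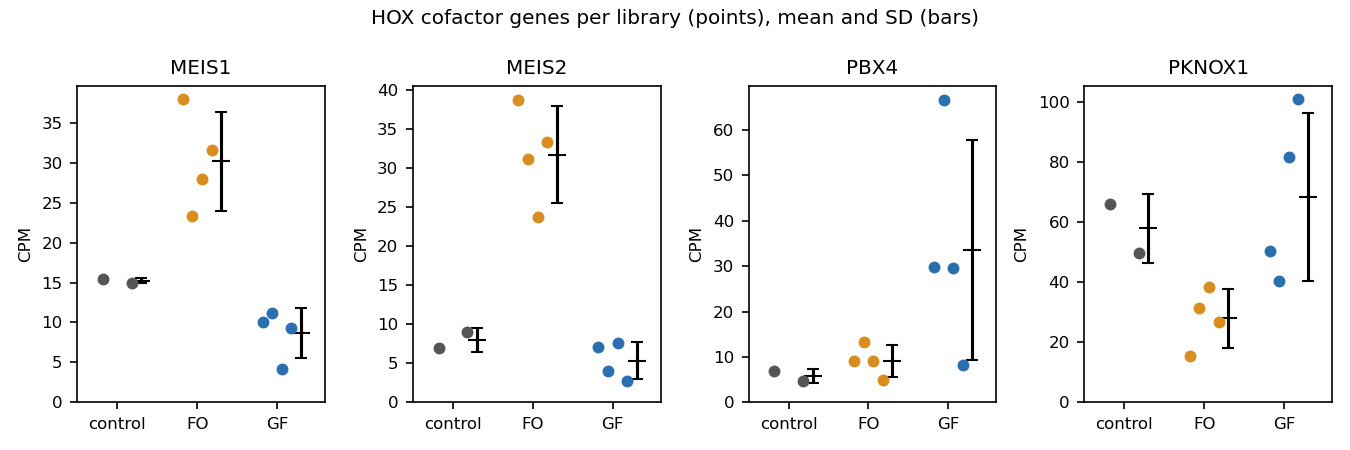
CPM per library (points) with the mean and SD of the group (bars) of 4 cofactor genes in control testis (n = 2), FO (n = 4) and GF (n = 4), each panel on its own axis from 0. MEIS1 and MEIS2 are highest in FO with no overlap, and PKNOX1 is higher in all GF libraries than in all FO libraries.

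Against control testis, MEIS2 was higher in FO (1.98 ± 0.46, adjusted p = 0.00935, edgeR). PBX4 was higher in GF (2.54 ± 0.69, adjusted p = 0.0165). PKNOX1 lost its call in GF versus FO without FO 1 or FO 4 (adjusted p = 0.0562 and 0.0503, edgeR), without FO 1 and GF 3 (0.112) and without GF 3 and GF 4 (0.0886). Over the 9 genes the median log2 fold change of GF versus FO was -0.56, beside -0.02 for all genes.

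Of 23 Polycomb genes, which keep silent clusters closed, 3 were higher and 2 lower in GF than in FO, and 18 were not called, beside 30.5% of all genes called in either direction. EZH2, the enzyme that places H3K27 methylation, had 10.6 to 20.6 CPM in FO and 30.4 to 96.3 CPM in GF (1.86 ± 0.37, adjusted p = 0.00325, edgeR). CBX6 and CBX7, chromodomain subunits, were lower in GF by -1.89 ± 0.31 and -1.52 ± 0.31 (adjusted p = 0.00114 and 0.00372), and PHC2, of the same complex, was higher by 0.87 ± 0.26 (adjusted p = 0.0255). Against control testis, CBX7 was higher in FO (3.22 ± 0.43, adjusted p = 2.31e-04) and in GF (1.70 ± 0.40, adjusted p = 0.00775), and EZH2 was lower in FO (-1.83 ± 0.39, adjusted p = 0.00570, edgeR).

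Of 13 Trithorax and H3K27 demethylase genes, which oppose Polycomb, 5 were higher, 1 lower and 7 not called in GF versus FO, beside 17.6% and 13.0% of all genes. KDM6B, an H3K27 demethylase, had 7.53 to 10.6 CPM in FO and 18.4, 30.5, 86.7 and 96.8 CPM in GF (2.65 ± 0.50, adjusted p = 0.00230, edgeR). WDR5 and KMT2D, parts of H3K4 methylation complexes, were higher by 1.20 ± 0.25 and 0.90 ± 0.24 (adjusted p = 0.00442 and 0.0159). KMT2B had 252 CPM in GF 3 and 25.9 to 75.7 CPM in the other GF libraries, against 13.3 to 18.5 CPM in FO (2.56 ± 0.65, adjusted p = 0.0114), and without GF 3 its log2 fold change was 1.38 (adjusted p = 0.0258, edgeR). Without GF 3 and GF 4, KMT2B had 0.69 (adjusted p = 0.0453) and KDM6B 1.40 (0.00279, edgeR). Without FO 1 and GF 3, KMT2B and KMT2D lost their calls (adjusted p = 0.0679 and 0.0823, edgeR). PHC2 lost its call without FO 1, FO 2 or GF 2 (adjusted p = 0.0801, 0.0615 and 0.0579), and KMT2D without FO 1 (0.0550).

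Retinoic acid and the CDX factors set HOX expression in the embryo. A list of such genes, which also holds GDF11 and CTCF, has 13 in the table. Of these, 8 were tested between GF and FO, with 2 higher, 1 lower and 5 not called, beside 30.5% of all genes called. CTCF was tested and not called. RARA, a retinoic acid receptor, had 13.9 to 21.6 CPM in FO and 50.6 to 82.3 CPM in GF (1.90 ± 0.26, adjusted p = 4.85e-04, edgeR). Of the enzymes that make retinoic acid, ALDH1A3 was higher in GF (1.23 ± 0.32, adjusted p = 0.0133) and ALDH1A2 lower (-1.33 ± 0.28, adjusted p = 0.00482), while ALDH1A1 differed by 0.57 ± 0.25 (adjusted p = 0.107, edgeR). Against control testis, ALDH1A1 and ALDH1A2 were higher in FO (3.22 and 3.08, adjusted p = 6.05e-05 and 1.60e-04) and in GF (3.79 and 1.76, adjusted p = 2.88e-05 and 0.00397, edgeR). CDX1 had no counts in any library.

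Other transcription factors of position were sparse: of 36, 8 were tested between GF and FO, and 1 was higher and 3 lower, beside 17.6% and 13.0% of all genes. FOXF2, a factor of gut and facial mesenchyme, was higher in GF (3.48 ± 0.79, adjusted p = 0.00643, edgeR), with 0 to 1.11 CPM in FO and 3.80 to 9.21 CPM in GF. PRRX1 and SHOX2 of the limb and TWIST1 of head and limb mesenchyme were lower (-1.31 ± 0.38, -2.52 ± 0.72 and -2.34 ± 0.72, adjusted p = 0.0209, 0.0210 and 0.0280). PRRX1 lost its call without FO 1 or FO 2 (adjusted p = 0.0923 and 0.0620), SHOX2 without each FO library (0.0508 to 0.0721) and TWIST1 without each FO library or GF 2 (0.0509 to 0.0917, edgeR). Without FO 1 and GF 3, PRRX1 and TWIST1 lost theirs too (0.103 and 0.0695), and FOXF2 had a log2 fold change of 4.17. GBX2, TBX4 and SIX2 had no counts.

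Transcription factors of the urogenital ridge, the tissue that gives rise to the gonad, and of its ducts differed between the grafts in 5 of 11 tested genes, with 2 higher and 3 lower in GF, beside 30.5% of all genes in either direction. EMX2 had 118, 90.3, 57.5 and 82.8 CPM in FO, 11.8, 13.5, 12.1 and 11.4 CPM in GF and 2.80 and 3.78 CPM in control testis, with no overlap between any groups. Its log2 fold change was -2.83 ± 0.28 in GF versus FO (adjusted p = 9.79e-05), and against control testis it was 4.71 ± 0.40 in FO and 1.88 ± 0.36 in GF (adjusted p = 1.14e-05 and 0.00260, edgeR). LHX9, a gonad gene, was lower in GF than in FO (-2.68 ± 0.33, adjusted p = 2.80e-04) and than in control testis (-1.75 ± 0.35, adjusted p = 0.00288). WT1, of the gonad and kidney, was lower in GF than in FO (-1.13 ± 0.23, adjusted p = 0.00361) and higher in both grafts than in control testis (1.04 in GF and 2.17 in FO, adjusted p = 0.0140 and 2.43e-04, edgeR). LHX1 was higher in GF than in FO (3.75 ± 0.95, adjusted p = 0.0113, edgeR), and without FO 4, which leaves 1 count in FO, it was 50.2-fold higher (8.68 to 2015). Its call was lost without FO 1 and GF 3 (adjusted p = 0.0711, edgeR).

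Markers of other cells differed between the same groups, and their part in the HOX values was not tested. Sertoli cell markers summed to 14440.2 to 45192 CPM in GF, 4161 to 8215 CPM in FO and 4541 and 5079 CPM in control testis. CLU made up most of each sum, at 13699 to 43933 CPM in GF and 3894 to 7715 CPM in FO. In control testis CLU had 3607 and 4072 CPM and AMH 446 and 521 CPM, and AMH had 32.5 to 188 CPM in GF. Of 6 Sertoli markers, 2 were called higher and 1 lower in GF than in control testis, beside 25.8% of all genes in either direction. Peritubular and smooth muscle markers summed to 566 to 787 CPM in GF and 188 to 291 CPM in FO, and macrophage markers to 4.83 to 6.64 and 20.9 to 111 CPM. Leydig cell markers summed to 13717 and 16346 CPM in control testis against 443 to 3589.8 CPM in grafts. Endothelial markers were at 221 and 226 CPM in control testis, 92.5 to 162 CPM in FO and 29.2 to 55.5 CPM in GF. Against this sum, EMCN was higher in FO (50.5 to 79.6 CPM) than in control testis (12.5 and 14.5 CPM). Of 5 endothelial markers, 1 was called higher and 2 lower in FO than in control testis, beside 18.7% of all genes in either direction. Markers of simple epithelium summed to 164 and 169, 247 to 393 and 111 to 179.8 CPM, and those of epidermis to 67.8 and 69.4, 68.2 to 88.6 and 36.6 to 73.3 CPM. Nearly all of the epidermis sum was KRT10, at 66.4 and 68.0, 68.0 to 88.6 and 34.9 to 71.8 CPM. KRT5 and KRT1 had no counts in FO. Erythroid markers summed to 3159.8 and 4031 CPM in control testis and 5.00 to 34.1 CPM in grafts.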

How the data were processed

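RNA of 10 pig libraries was prepared with the QuantSeq 3' kit, per the labels' protocols. The authors deposited raw read counts per gene as whole numbers. The submitters' processing notes list the build Sscrofa11.1 and the tool DESeq2 1.42.0. The aligner, the counter and whether strand was used: not given in the sources used here. Columns named F were taken as FO.

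Counts were tested with edgeR 4.0.16 (R 4.3.3; quasi-likelihood, robust, TMM) after filterByExpr with a minimum count of 10, and a Benjamini-Hochberg adjusted p under 0.05 over all tested genes was a call. GF versus FO used the 8 grafts, and comparisons with control testis all 10 libraries in a single fit. The method was tested on simulated data. Values carry SD or SE, and count ratios carry exact 95% intervals.

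Deviations of same-numbered FO and GF libraries correlated at 0.105, 0.258, 0.117 and 0.114. The GF library of the same number was the closest match for FO 2 and FO 4, but not for FO 1 and FO 3. The labels state no pairing, so the reported fits used the group only. An alternative fit took the number as a block. Blocking on the number changed no HOX call between GF and FO.

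HOX genes with counts were named, with library values for those called between GF and FO or among the 12 most abundant, then up to 4 genes of lowest p per regulator list, and the neighbours of each cluster. A few results that this rule selects are not reported here. Members and lists were chosen with earlier results of these data known. Alternatives were DESeq2, other scalings, no filter, a fold threshold, fits on other sets of libraries, thinning and leaving out libraries.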

Additional observations from a re-analysis of the deposited data

Results flagged for a closer look

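In 8 of 103 groups of 4 graft libraries, a single library stood far from the other 3. Chance gives about 5.15 such groups for values with a normal spread. A group with counts in 1 library alone is always flagged, so 5.15 is not the chance rate for low counts. GF 4 had 6.57 CPM of HOXA6, and GF 3 had 6.90 CPM of HOXC5 and 1.73 CPM of HOXC13, each gene near 0 in the other GF libraries. FO 1 had 9.48 CPM of HOXA10, the highest value of that gene. GF 1 had 0.857 CPM of HOXB8, and GF 2 had 0.722 CPM of HOXA13, both with 0 in the other GF libraries. Among the regulators, FO 4 was low for ALDH1A1 at 98.1 CPM and FO 3 was low for WT1 at 354 CPM.

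HOXA9 parted the grafts in opposite directions from control testis. All 4 FO libraries lay above both controls (8.36 to 12.8 CPM against 6.50 and 7.25 CPM), and all 4 GF libraries lay below them (0 to 3.43 CPM). Neither comparison with control testis passed in edgeR (adjusted p = 0.655 for FO and 0.0990 for GF), while HOXA9 was lower in GF than in FO (adjusted p = 0.0282, edgeR).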

How the results depend on the processing

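Between GF and FO, 4 HOX genes were lower in the reported fit. DESeq2 called 8, a fit on all 10 libraries 7, total counts as scaling 3, a fold threshold of 1.5 or thinning 2 each, leaving out GF 3 and GF 4 8, and leaving out FO 1 and GF 3 0. Leaving out a single library gave 1 to 6. Over all genes, the 4205 calls became 5147 with DESeq2, 5485 with all 10 libraries and 5305 without GF 3 and GF 4. They became 2456 with the fold threshold and 2312 without FO 1 and GF 3. Members tested numbered 13 with DESeq2, 18 with all 10 libraries and 15 without GF 3 and GF 4. For GF versus control testis, 4 members were lower in the reported fit, 2 with only the libraries of those groups or with the fold threshold, 8 without GF 3 and GF 4, and 1 to 5 without a single library, while 1 was higher with DESeq2 and 0 to 1 without a single library. The 4091 calls over all genes became 2201 with only those groups, 2658 with the fold threshold and 1141 to 4729 without a single library. For FO versus control testis, 3 were lower in the reported fit, 1 with the fold threshold and 0 to 2 without a single library. Higher members numbered 4 with DESeq2, 4 with only those groups and 1 without FO 1 and GF 3. DESeq2 called 3825 genes in all there. The 2972 calls over all genes became 6600 with only those groups, 1833 with the fold threshold and 796 to 2263 without a single library, where a lone control is assumed to vary like the grafts. The cause of these changes was not tested, except that fewer libraries enter where some were left out. With total counts as scaling, cluster D summed to 139 CPM in control testis (140.1 with TMM) and paralog 8 to 53.3 CPM in FO (55.9). The replicate block left the counts for GF versus FO at 4 lower. Control libraries did not deviate with the grafts of their number (correlations of 0.00302 with FO and -0.0574 with GF over 2 pairs), so they share only a number. With the replicate block there, 2 members were higher in FO (HOXA10 4.43, adjusted p = 0.0327, and HOXB2 2.67, adjusted p = 0.0196), HOXD8 in FO had an adjusted p of 0.0586, and in GF HOXA4 had 0.0420 and HOXD10 0.126.

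Only members that were not called changed direction. In GF versus FO, the log2 fold change of HOXC8 was 0.08 with total counts, 0.07 with thinning and -0.32 to 0.21 without a single library (0.00 without FO 1, 0.01 without FO 3, 0.03 without FO 4, 0.17 without GF 1 and 0.21 without GF 2). Without a single library, HOXD9 ranged from -0.39 to 0.02 (without GF 2) and HOXD3 from -0.01 (without GF 3) to 0.80. HOXD3 had -0.25 without FO 1 and GF 3, and -0.11 without GF 3 and GF 4. In GF versus control testis, HOXC9 had 0.04 with thinning, 0.04 without control 2, 0.01 without GF 1, 0.02 without GF 2, and at lowest -0.45 without a single library and -0.72 without GF 3 and GF 4. HOXA10 ranged from -3.68, a fitted value with GF at 0 that is no bound, to 0.21 without control 1, and HOXC8 had -0.08 without GF 3 and GF 4. In FO versus control testis, HOXC4 had -0.00 with thinning, -0.22 without control 2, -0.01 without FO 4, and at highest 0.50 without a single library. Depth limits what can be said of the 19 members that were not tested between GF and FO.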
